A study of Sus scrofa with 6 samples.

Results

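The probes described here report ion pumps and ion channels in pig renal cortex. They were chosen by name alone: every probe whose gene name in the array design begins with ATP1A, ATP1B, ATP2A, ATP2B, ATP6V, KCN, SCN followed by a digit or N, CLCN, CACN, TRPC, TRPM or TRPV. The rule found 101 of 43603 probes, for 51 genes. Of these 101 probes, 71 (70.3%) had a signal well above background on at least 3 of 6 arrays, against 57.37% of all probes, and they covered 33 of the 51 genes. KCNJ1, the apical potassium channel of the thick limb and collecting duct that would mark those segments, named 0 of 43603 probes, so no level is given for it.

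Total RNA of the renal cortex came from Large White pigs aged 3 months, with 1 Agilent array for each kidney. The control kidneys (n = 3) were taken out and at once sampled and frozen, with no other treatment. The ischemia kidneys (n = 3, from different pigs) were clamped and kept clamped for 60 min at 37 °C, then washed through with cold University of Wisconsin solution, made for organ preservation, and held at 4 °C for 24 h before they were sampled. No reperfusion is described, and warm ischemia, flush and cold storage cannot be told apart. Each of 3 slides carried 1 control and 1 ischemia array: slide 1 held control 1 and ischemia 2, slide 2 held control 2 and ischemia 3, and slide 3 held control 3 and ischemia 1. Controls always lay at position 4 of a slide and ischemia samples at position 3, and these positions and the groups cannot be told apart.

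Epithelial cells of the nephron are driven by the Na,K-ATPase, a basolateral pump of a catalytic alpha and a glycosylated beta subunit that exchanges sodium for potassium at the cost of ATP. Potassium channels return the potassium, apical channels and carriers let sodium in, and the vacuolar proton pump acidifies urine and organelles. Calcium is kept low in the cytosol by SERCA pumps of the endoplasmic reticulum and PMCA pumps of the plasma membrane. In an organ without oxygen ATP falls, so pumping falters while leaks go on, and cold storage slows the pumps further. RNA levels on an array do not report pump or channel activity.

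Values are given as the log2 processed signal relative to the 75th percentile of its array, a difference is ischemia minus control with its standard error (SE, n = 3 per group), and the test is limma over 25013 probes with Benjamini-Hochberg adjustment. Between 52.56% and 61.36% of the spots on an array were well above background, no spot was saturated, and correlations between arrays were 0.960 to 0.983. Cell type markers fixed for the cortex were read as well. The proximal tubule genes SLC34A1, ANPEP and AQP1 were well above background on all 6 arrays, and all 3 were lower after ischemia without passing the test (-0.64, -0.73 and -0.55). The mean of these 3 was 4.60 to 5.58 on control arrays and 4.21 to 4.73 on ischemia arrays. Of the other lists, 2 of 2 thick limb genes and 3 of 3 principal cell genes named on the array were also lower, and 2 of 2 smooth muscle genes were higher, again with 0 past the test. No probe carried the name of an intercalated cell marker of the list. Some probes carry an accession in place of a gene name and were not matched, so a missing name does not show that the array lacks the gene. In bulk tissue, fewer cells of a type and less RNA per cell cannot be told apart, and the part of such markers in the results below was not tested.

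Several genes were read by more than 1 probe of 60 bases, and the letters of the probe bear on what was seen. The ATP2A2 probes lie so close together that many share letters. The 3 neighbours below overlap and are shown for that, with the run of 26 bases common to them in capitals, 5′ to 3′ as the array files give them.
ATP2A2 A_72_P624661: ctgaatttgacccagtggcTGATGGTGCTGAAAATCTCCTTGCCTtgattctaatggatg
ATP2A2 A_72_P576059: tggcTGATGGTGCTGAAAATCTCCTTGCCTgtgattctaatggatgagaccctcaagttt
ATP2A2 A_72_P601148: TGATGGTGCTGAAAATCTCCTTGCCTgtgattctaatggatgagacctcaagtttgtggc
The differences of these probes were 0.10, 0.09 and 0.07, and their values on any array lay within 0.28 of each other. Such probes read the same stretch of RNA and are not independent of each other. In all, 12 pairs of member probes shared a run of at least 20 bases, in ATP1B1, ATP2A2 and KCNE3.

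Another set is shown for the codon on which its probes end. Of 101 member probes, 9 (8.91%) end on a stop codon with no earlier stop in that frame, against 2.69% of all 43603 probes, and these probes reach no further than the end of a reading frame if that frame is the one used. The last codon is in capitals for 3 of them.
ATP2A2 A_72_P444260: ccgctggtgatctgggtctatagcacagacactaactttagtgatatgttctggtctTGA
KCNE1 A_72_P035586: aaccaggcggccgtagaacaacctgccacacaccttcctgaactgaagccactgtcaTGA
KCNJ15 A_72_P487359: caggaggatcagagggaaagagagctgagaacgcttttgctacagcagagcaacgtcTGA
The ATP2A2 and KCNJ15 probes were well above background on all 6 arrays, and the KCNE1 probe on 1. Of the 9 such probes 3 (33.3%) were tested, against 68 of the other 92 (73.9%). All 20 ATP2A2 probes were tested, and most of them are among the other 92. The gene and the end of the probe cannot be told apart in these shares, and the difference was not tested. KCNE3 has a pair of the 9 probes. They are shown for the bases in capitals, where they differ by T45C and A59G counted from the 5′ end of the first.
KCNE3 A_72_P077426: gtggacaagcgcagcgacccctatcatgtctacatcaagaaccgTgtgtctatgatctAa
KCNE3 A_72_P444834: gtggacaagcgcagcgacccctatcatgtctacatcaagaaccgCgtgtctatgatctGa
Neither KCNE3 probe of this pair was well above background on any array, while another KCNE3 probe, built on an expressed sequence tag, was so on all 6. Of 23 member genes with more than 1 probe, 5 had both tested and untested probes, namely KCNE1, KCNE3, KCNIP1, KCNN4 and KCNS3. Base composition was alike, with a median GC share of 43.3% in the tested and 45.0% in the untested probes. In the 5 genes with both kinds, an untested probe did not speak for every probe of its gene. For genes with no tested probe, whether the missing signal lies with the probe or with the gene was not tested.

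**Figure D1:**
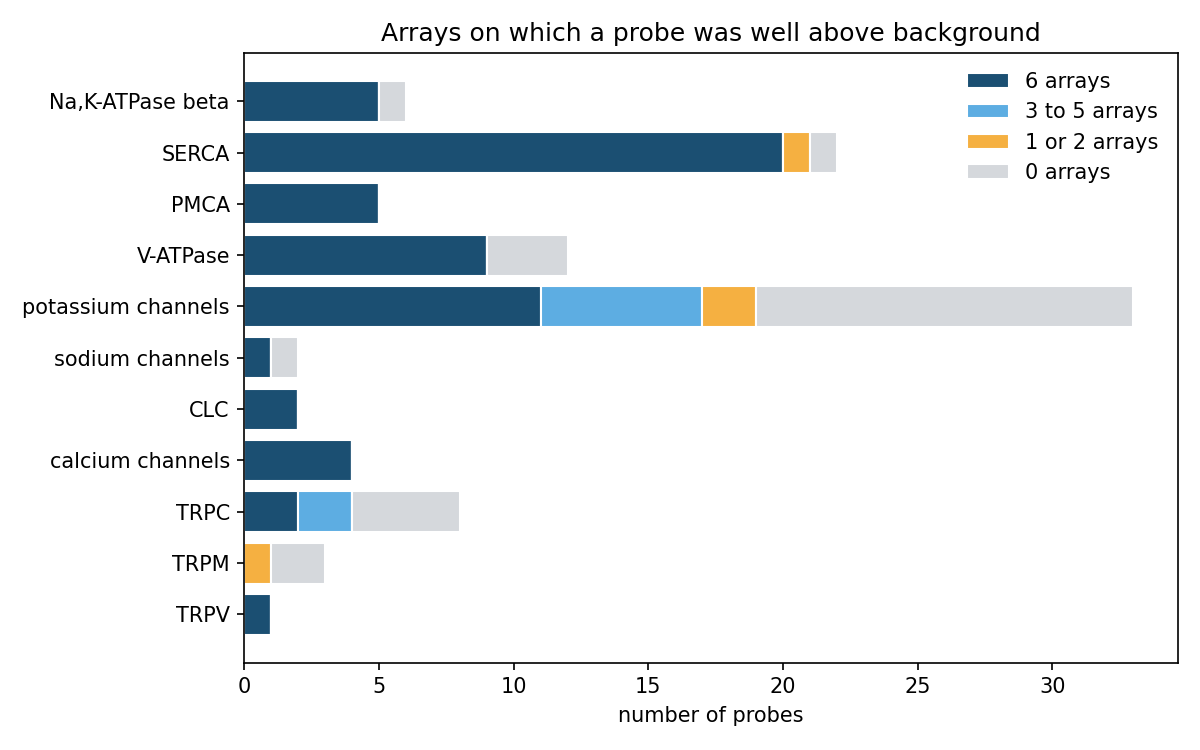
Number of member probes (x axis) in each of 11 name families (y axis), coloured by the number of arrays, of 6, on which the probe was well above background. SERCA probes were nearly all seen on 6 arrays, whereas 14 of 33 potassium channel probes were seen on 0.

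Of 48 pump probes 42 (87.5%) were tested, each of them well above background on all 6 arrays, and of 53 channel probes 29 (54.72%) were tested. ATP2A2 alone supplied 20 of the tested pump probes. By gene, 10 of 13 pump genes and 23 of 38 channel genes had a tested probe, and the difference was not tested. Over all members, 63 probes were well above background on 6 arrays, 3 on 5, 2 on 4, 3 on 3, 1 on 2, 3 on 1 and 26 on 0. The genes counted as pumps by name that had no tested probe are known from other tissues: ATP1B4 of muscle (0 arrays), ATP2A1 of fast skeletal muscle (its probes on 0 and 1 array) and ATP6V1G2 of brain (3 probes, 0 arrays). Among channels, nothing was well above background for KCNA10, KCNE2, KCNJ3, KCNJ9, KCNJ13, KCNMA1, KCNQ5, SCN8A, TRPC4, TRPC5, TRPC6 or TRPM1. KCNN3 was seen on 1 array and TRPM2 on 0 and 2 arrays with its pair of probes.

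After ischemia and storage no member probe passed the test. At a limma adjusted p under 0.05 there were 0 of 71 member probes, beside 1 of 25013 over the array (0.004%), and the smallest adjusted p of a member was 0.6426. At an unadjusted limma p under 0.05 there was 1 of 71 (1.41%), a potassium channel subunit, against 6.3% of all probes tested (2.98% higher and 3.32% lower after ischemia). The values of the groups did not overlap for 2 of 71 member probes (2.82%), 1 in each direction, against 10.9% of all probes tested (5.87% above and 5.01% below). Both shares lie below those of the array as a whole. With 3 arrays a group, the smallest p of an exact permutation test is 0.1, and none was run on single probes.

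By sign alone, 40 of 71 member differences lay above 0 (56.3%) and 31 below, with a median of 0.05. Over all probes tested 44.2% lay above 0 and the median was -0.04. The excess of positive signs came from 1 gene: ATP2A2 supplied 20 of the 71 probes, and without it 24 lay above 0 and 27 below, with a median of -0.01. Pump differences ran from -0.13 to 0.40, with 29 of 42 above 0, and channel differences from -0.61 to 1.17, with 11 of 29 above 0. Of the 29 pump probes above 0, 16 were of ATP2A2. All 42 tested pump probes were well above background on 6 arrays, against 21 of the 29 channel probes. The median SE was 0.24 for pumps and 0.31 for channels, and the part of signal level in these ranges was not tested. No interval (95%) of a pump probe reached below -0.72 or above 1.01. These signs depend on how the arrays are scaled. With each array centred on its median the median of all probes was 0.11, and it was 0.14 in the authors' deposited value table. The beta subunit, potassium channel and calcium channel medians, below 0 here, were then 0.04, 0.08 and 0.13 with median centring, of which only the last lies above that of all probes. With quantile normalization, where the median of all probes was 0.00, the potassium and calcium channel medians were 0.05 and 0.06, and in the deposited table they were 0.13 and 0.09.

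**Figure D2:**
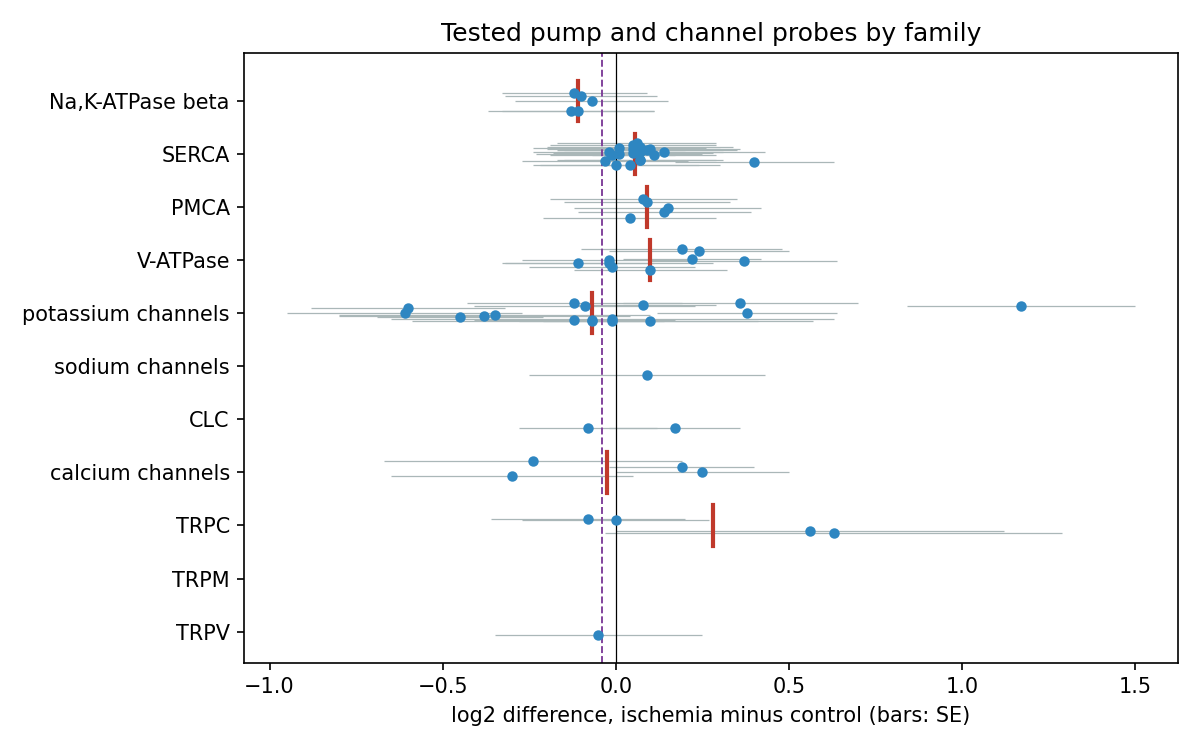
Log2 difference, ischemia minus control (x axis), of tested member probes in 11 name families (y axis), with bars of 1 SE, a red mark at the family median and a dashed line at the median of all probes tested, -0.04. Pump probes crowd around 0 and channel probes spread from -0.61 to 1.17, with KCNMB4 at the far right.

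The beta subunit of the sodium pump was detected on every array and differed little between groups. ATP1B1, the beta 1 subunit that carries the pump to the membrane, read 7.62, 7.26 and 7.54 in controls and 7.40, 7.64 and 7.18 in ischemia kidneys. The highest values were those of the pair of arrays on slide 1, and the groups overlapped. Its difference was -0.07 ± 0.22 (SE, limma adjusted p = 0.9708, 95% interval -0.58 to 0.44), and its 5 tested probes gave -0.13 to -0.07. Each of the 5 lay below 0 by less than 1 SE. The medians within slides 1, 2 and 3 were 0.07, -0.12 and -0.25.

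ATP2A2 encodes SERCA2, the pump that refills the calcium store of the endoplasmic reticulum, and it was read by 20 probes. Of these, 14 are filed under an entry that the array design describes as a non-muscle transcript and 6 under the reference transcript. The brightest probe, A_72_P303154, read 2.88, 2.93 and 2.98 in controls and 3.43, 3.63 and 2.92 in ischemia kidneys. Ischemia 1 and 2 lay above all controls and ischemia 3 lay among them. The difference was 0.40 ± 0.23 (SE, limma adjusted p = 0.8923, 95% interval -0.15 to 0.95), and within slides it was 0.75, -0.01 and 0.46. The other 19 probes did not share this pattern. Their differences were -0.03 to 0.14, and within slides they were -0.51 to -0.09 on slide 1, -0.30 to 0.16 on slide 2 and 0.04 to 0.76 on slide 3.

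In 17 of the 20 ATP2A2 probes the lowest of the 6 arrays was control 3, by 0.39 to 0.79 below the mean of the other arrays. The probe at the end of the reading frame printed above, A_72_P444260, is 1 of them, with 2.30, 2.23 and 1.38 in controls and 2.10, 1.98 and 2.26 in ischemia kidneys. The 3 probes that did not follow were A_72_P303154 and the pair A_72_P505287 and A_72_P570339, which share a run of 48 bases. The pair gave differences of -0.01 and 0.11. Leaving out control 3 turned the SERCA median from 0.05 to -0.15, and taking only the brightest probe of the gene moved it to 0.40. The sign and size of the ATP2A2 difference thus depended on control 3 and on the probe taken.

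**Figure D3:**
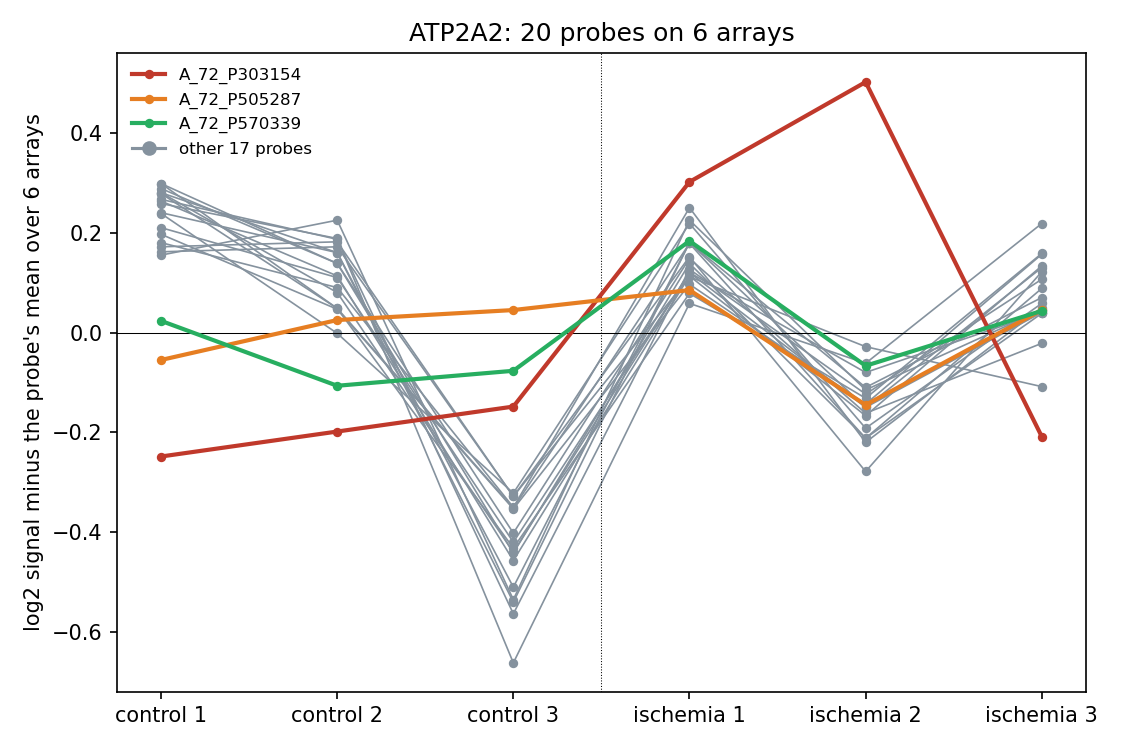
Log2 signal of the 20 ATP2A2 probes on each of 6 arrays (x axis), as the deviation from the mean of that probe over the arrays (y axis). In 17 probes, drawn in grey, control 3 is the lowest array, while A_72_P303154 is highest on ischemia 2, and A_72_P505287 and A_72_P570339 stay within 0.18 of their mean.

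Phospholamban (PLN) and sarcolipin (SLN), small membrane proteins that restrain SERCA pumps, are not in the name families and were read as partners. PLN, with its brightest probe, read 0.22, -0.07 and -0.33 in controls and 0.38, 0.69 and 0.69 in ischemia kidneys. All ischemia values lay above all control values. The difference was 0.65 ± 0.22 (SE, limma unadjusted p = 0.02179, adjusted p = 0.7244), so it did not pass, and within slides it was 0.48, 0.76 and 0.71. The 6 PLN probes of the reference transcript gave 0.60 to 0.74, each with all ischemia values above the controls, and limma adjusted p-values of 0.6385 to 0.7557. They read the same transcript on the same arrays and are not independent of each other. With A_72_P643028 the groups nearly met, at -0.12 in control 1 and -0.10 in ischemia 1. Over the array, 5.87% of all probes tested had all ischemia values above the controls. A seventh PLN probe, on another sequence, gave 0.17. The 9 SLN probes gave 0.10 to 0.44, with groups that overlapped in each. PLN is known from smooth, cardiac and slow skeletal muscle. Both smooth muscle markers named on the array were higher after ischemia too, with ACTA2 at 0.28 and CNN1 at 0.92 ± 0.37. Their mean was 3.11 to 3.28 on control and 3.45 to 3.96 on ischemia arrays, although the ACTA2 groups overlapped. CNN1 read 0.10, 0.15 and 0.13 in controls and 1.30, 0.19 and 1.65 in ischemia kidneys, with ischemia 2 near the controls. The part of these markers in the PLN values was not tested.

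ATP2B1, the housekeeping calcium pump of the plasma membrane, read 2.12, 2.05 and 1.80 in controls and 2.32, 2.36 and 1.68 in ischemia kidneys. Ischemia 1 and 2 were highest and ischemia 3 was lowest of all 6. The difference was 0.14 ± 0.25 (SE, limma adjusted p = 0.9575), and the 5 probes gave 0.04 to 0.15. Within slides the median was 0.26, -0.37 and 0.41, and the sign thus differed between slides.

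The vacuolar proton pump joins a cytosolic V1 sector, which splits ATP, to a membrane V0 sector, which passes protons. Of its 7 genes named on the array 6 were tested with 9 probes, 5 above 0 and 4 below, with a median of 0.10. Subunits named for intercalated cells, ATP6V1B1, ATP6V0A4 and ATP6V0D2, are not among the probe names. The catalytic subunit ATP6V1A read 1.67, 1.55 and 1.36 in controls and 1.52, 2.04 and 0.96 in ischemia kidneys. The ischemia values enclosed all control values, and the difference was -0.02 ± 0.30 (SE, limma adjusted p = 0.995). ATP6V1G1, a stalk subunit, read 6.67, 6.59 and 6.80 in controls and 6.92, 7.38 and 6.34 in ischemia kidneys with its brighter probe. Again ischemia 3 was lowest and ischemia 2 highest, and the difference was 0.19 ± 0.29 (limma adjusted p = 0.9489), or 0.37 ± 0.27 with the other probe.

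ATP6V1H, a regulator of V1, read 5.34, 5.25 and 5.33 in controls and 5.69, 5.61 and 5.27 in ischemia kidneys. The controls lay within 0.09 of each other, and ischemia 3 lay among them. The difference was 0.22 ± 0.20 (limma adjusted p = 0.9346). ATP6V0A2, a proton-path subunit of the Golgi and endosomes, read -1.30, -1.36 and -1.13 in controls and -0.83, -0.71 and -1.52 in ischemia kidneys, a difference of 0.24 ± 0.26 (limma adjusted p = 0.9411). Its dimmer probe gave -0.02. The remaining subunits were nearly level in the main analysis, with ATP6V1D at -0.11 and -0.01 and ATP6V1E1 at 0.10. The family medians within slides were 0.37, -0.23 and 0.26. In the authors' deposited table the family median was 0.28, against 0.14 for all probes. There ATP6V1E1, ATP6V1H and ATP6V1G1 were 0.35, 0.50 and 0.51, each at an unadjusted limma p under 0.05 (adjusted p = 0.3544, 0.2766 and 0.3641). ATP6V1A, ATP6V1D and ATP6V0A2 were 0.21, 0.17 and 0.22 there.

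**Figure D4:**
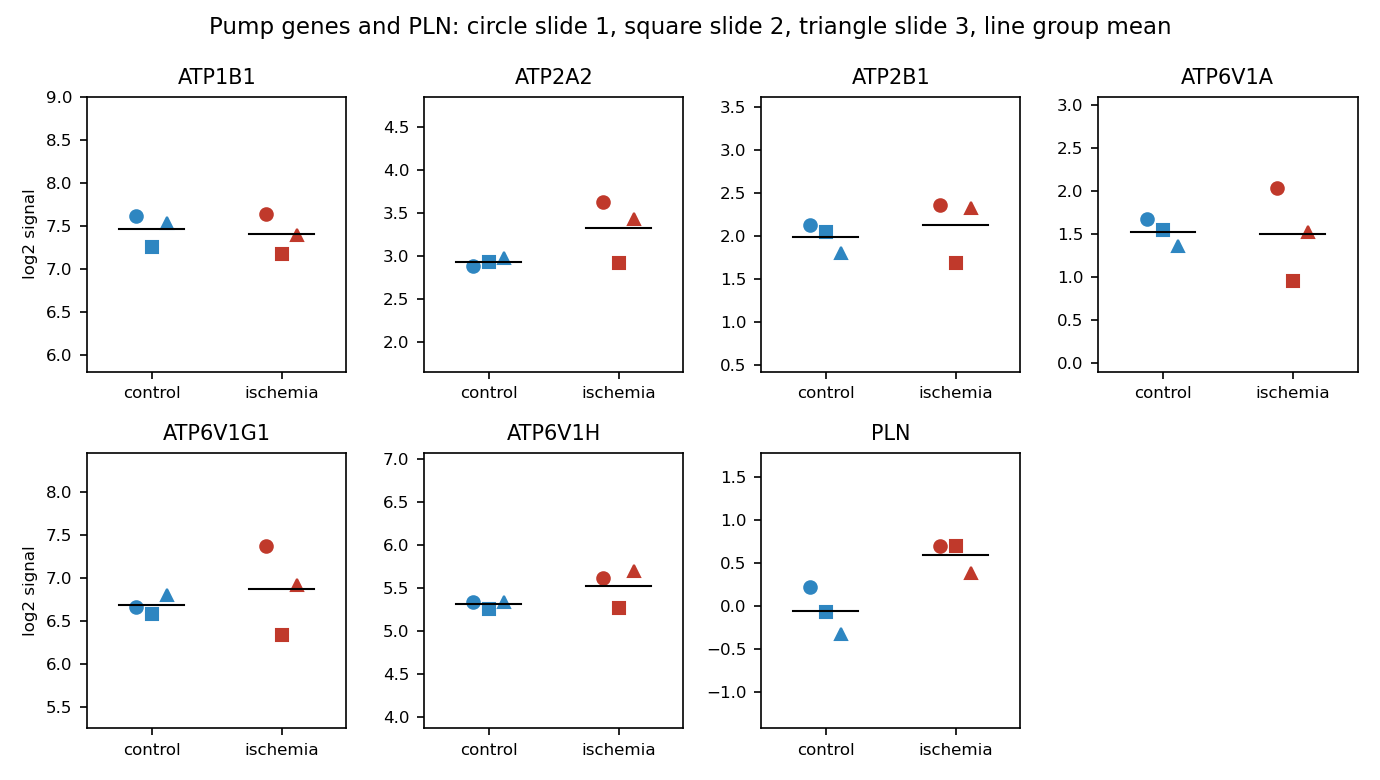
Log2 signal relative to the 75th percentile of the array (y axis) in 3 control and 3 ischemia kidneys (x axis) for the brightest probe of 6 pump genes and of PLN. Symbols give the slide and lines the group mean, and only the PLN groups do not overlap. On slide 2 (squares) the ischemia value of ATP2B1, ATP6V1A and ATP6V1G1 is the lowest of 6.

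Potassium channels were the largest family by genes, with 33 probes for 23 genes, of which 17 probes for 15 genes were tested. Of the differences 5 lay above 0 and 12 below, with a median of -0.07 and within-slide medians of -0.16, 0.10 and 0.01. KCNMB4, the beta 4 subunit that alters the gating of large-conductance calcium-activated channels, had the smallest p of all members. The first 30 of the 60 bases of its probe, A_72_P269404, identify it.
KCNMB4 A_72_P269404: gctgtacggagtaatcgttgcagaaaatcc
It read -4.34, -4.44 and -4.11 in controls and -2.76, -3.86 and -2.75 in ischemia kidneys. All ischemia values lay above all controls, although ischemia 2 lay closer to the controls than to the other two. The difference was 1.17 ± 0.33 (SE, limma unadjusted p = 0.009223, adjusted p = 0.6426, 95% interval 0.39 to 1.95), which did not pass over all probes, and within slides it was 0.47, 1.70 and 1.35.

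The KCNMB4 probe was dim. It was well above background on 1 control and 2 ischemia arrays, and the lowest signal called well above background on an array lay between -4.83 and -3.92. With another background correction (normexp) the difference was 0.17 ± 0.15, and in the authors' deposited value table it was 0.51. Its limma adjusted p was 0.2846 to 0.9996 over 15 other settings, and each of them kept the sign. KCNMA1, which forms the pore of these channels, was well above background on 0 of 6 arrays.

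KCNAB2, a cytosolic beta subunit of voltage-gated potassium channels, was the only member among the 71 tested probes whose ischemia values all lay below the controls. It read 0.02, -0.67 and -0.64 in controls and -1.40, -0.86 and -0.82 in ischemia kidneys. The gap between the groups was small, from -0.82 to -0.67. The difference was -0.60 ± 0.28 (SE, limma adjusted p = 0.8501), and within slides it was -0.88, -0.15 and -0.76. KCNE3, an ancillary subunit that partners KCNQ1 in epithelia, read -1.85, -0.82 and -0.74 in controls and -1.48, -2.03 and -1.74 in ischemia kidneys with its expressed-tag probe. Control 1 lay among the ischemia values. The difference was -0.61 ± 0.34 (limma adjusted p = 0.8822), with -0.19, -0.91 and -0.74 within slides, and it was -0.97 without control 1 (limma adjusted p = 0.2109). With slide as a block, 3 of the 71 member probes had an unadjusted limma p under 0.05, against 9.26% of all probes. They were KCNMB4 (0.006031), KCNE3 (0.03657) and KCNAB2 (0.04162), and their adjusted p-values were 0.3385, 0.5041 and 0.5211.

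KCNJ15, the inward rectifier Kir4.2 of the basolateral proximal tubule, read 3.06, 3.11 and 2.67 in controls and 2.59, 2.74 and 2.16 in ischemia kidneys. Ischemia 2 lay just above control 3, which is the whole overlap of the groups. The difference was -0.45 ± 0.24 (SE, limma adjusted p = 0.8716, 95% interval -1.01 to 0.11), and within slides it was -0.33, -0.95 and -0.08. The proximal tubule markers named above had differences of -0.73 to -0.55 on the same arrays. Among controls, each of them and KCNJ15 was lowest on control 3. Among ischemia kidneys, SLC34A1, ANPEP and AQP1 were highest on ischemia 3 (6.22, 5.84 and 2.13), where KCNJ15 was lowest. The part of these markers in the KCNJ15 values was not tested. KCNQ1, the pore that KCNE1 and KCNE3 accompany, read -1.78, -2.96 and -2.52 in controls and -2.52, -2.29 and -2.72 in ischemia kidneys, a difference of -0.09 ± 0.32 (limma adjusted p = 0.9732). The ischemia values lay inside the range of the controls.

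KCNE1, the other ancillary subunit, had the opposite sign. It read -2.84, -3.06 and -2.87 in controls and -3.01, -2.47 and -2.16 in ischemia kidneys, with ischemia 1 among the controls. The difference was 0.38 ± 0.26 (SE, limma adjusted p = 0.9067), and with normexp it was 0.05 ± 0.20. KCNA2, a voltage-gated pore of the Shaker group, read -1.07, -1.01 and -1.00 in controls and -0.01, -0.61 and -1.38 in ischemia kidneys. The controls were nearly equal, whereas the ischemia values lay on both sides of them, and the difference was 0.36 ± 0.34 (limma adjusted p = 0.9389). The other tested potassium channel genes (KCNA5, KCNAB1, KCNB2, KCNG1, KCNIP1, KCNJ5, KCNN4 and KCNS3) had differences of -0.38 to 0.10, all with overlapping groups.

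SCNN1A, the alpha subunit of the epithelial sodium channel of the collecting duct, read -3.14, -3.80 and -3.93 in controls and -3.48, -3.02 and -4.10 in ischemia kidneys. Slide 1 held the highest value of either group, and the difference was 0.09 ± 0.34 (SE, limma adjusted p = 0.976). The probe was well above background on all 6 arrays but dim. On ischemia 3 it read -4.10, where the lowest signal called well above background was -4.19. With normexp the difference was -0.05 ± 0.18. CLCN3, an endosomal chloride-proton exchanger and the only CLC gene among the probe names, read -0.38, -0.65 and -0.59 in controls and -0.25, -0.37 and -0.46 in ischemia kidneys with its brighter probe. Ischemia 3 lay below control 1, and the others above all controls. The difference was 0.17 ± 0.19 (limma adjusted p = 0.9411), and that of the other probe was -0.08 ± 0.20.

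The probes named for voltage-gated calcium channels were those of accessory subunits, 3 genes with 4 tested probes. CACNA2D1, the alpha 2 delta 1 subunit, read -1.03, -0.78 and -0.73 in controls and -0.56, -0.50 and -0.91 in ischemia kidneys. Ischemia 3 lay among the controls and the others above them. The difference was 0.19 ± 0.21 (SE, limma adjusted p = 0.9411), and 0.25 ± 0.25 with the second probe. CACNG1, the gamma 1 subunit of skeletal muscle, read -3.49, -2.73 and -3.13 in controls and -2.72, -3.74 and -3.80 in ischemia kidneys, a difference of -0.30 ± 0.35 (limma adjusted p = 0.944). Of 8 skeletal muscle markers named on the array 4 were tested, 3 above 0 and 1 below, with MYLPF at -2.34 ± 0.26 (limma adjusted p = 0.1342). Their mean was 0.87 to 1.18 on control and 0.27 to 0.97 on ischemia arrays. Their part in the CACNG1 values was not tested, and the myosin heavy chains MYH2 and MYH4 were well above background on 0 arrays. CACNB4, a beta subunit, gave -0.24 ± 0.43.

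TRPC1, a cation channel subunit linked to calcium entry after store release, had the widest spread between arrays among the tested member probes. Its brighter probe read -4.98, -3.58 and -2.13 in controls and -3.04, -3.28 and -2.45 in ischemia kidneys. The controls ran from lowest to highest of all 6 arrays and enclosed every ischemia value. The difference was 0.63 ± 0.66 (SE, limma adjusted p = 0.9411), and the other probe, with -4.76, -4.07 and -2.40 against -3.48, -3.08 and -2.99, gave 0.56 ± 0.56. The differences of these probes were 1.35 and 1.23 without control 3, -0.07 and 0.05 without control 1, and -0.06 and -0.04 with normexp. The brighter probe was well above background on 1 control and 2 ischemia arrays. TRPC4AP, a protein that binds TRP channels and shares only the start of the name, gave 0.00 and -0.08. TRPV4, a channel opened by swelling and stretch, read 2.03, 1.76 and 1.31 in controls and 1.57, 2.12 and 1.27 in ischemia kidneys, a difference of -0.05 ± 0.30 (limma adjusted p = 0.9877). Its groups overlapped throughout.

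**Figure D5:**
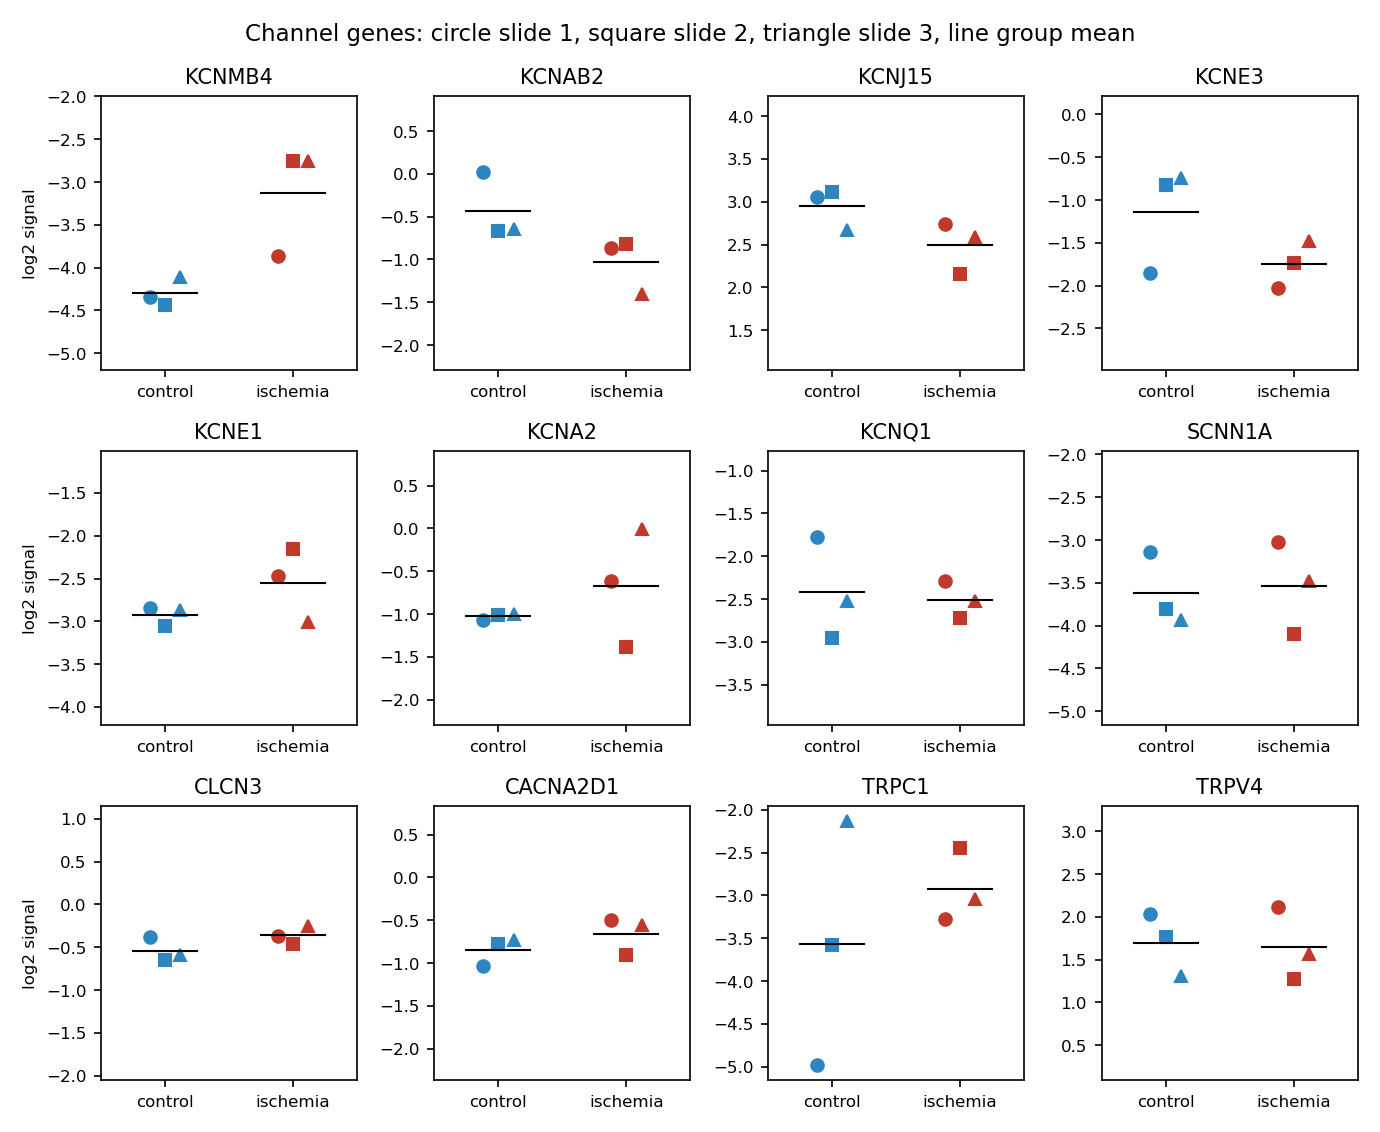
Log2 signal relative to the 75th percentile of the array (y axis) in 3 control and 3 ischemia kidneys (x axis) for the brightest tested probe of 12 channel genes. Symbols give the slide and lines the group mean. The groups do not overlap only for KCNMB4 and KCNAB2, and the TRPC1 controls span from -4.98 to -2.13.

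Partners and regulators outside the name families did not pass either. Of 45 listed, 16 were named on the array and 13 were tested, with 5 above 0, 8 below, a median of -0.08 and 0 at a limma adjusted p under 0.05. At an unadjusted limma p under 0.05 there was 1 of 13, PLN, described above, against 6.3% of all probes tested. HSD11B2, which shields the mineralocorticoid receptor from cortisol in cells that carry the epithelial sodium channel, read 4.89, 4.14 and 3.68 in controls and 3.70, 3.57 and 3.59 in ischemia kidneys. The ischemia values lay close together near control 3, and the difference was -0.62 ± 0.31 (SE, limma adjusted p = 0.8638). CALB1, the calcium-binding calbindin of the distal tubule, read 4.69, 3.63 and 4.70 in controls and 5.19, 5.52 and 4.12 in ischemia kidneys. On each slide the ischemia value was the higher, by 0.84, 0.49 and 0.49, although the groups overlapped, and the difference was 0.61 ± 0.44 (limma adjusted p = 0.9106). SLC8A1, the sodium-calcium exchanger, gave -0.40 ± 0.29 and NR3C2, the mineralocorticoid receptor, -0.08 ± 0.23.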

How the data were processed

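The deposited scanner files hold spot intensity on a linear scale, which per the file headers Agilent Feature Extraction 10.10.1.1 background-subtracted and detrended within each array; the submitters' processing notes name limma, R 2.15.2 and version 11.5.1.1. A log2 value table was also deposited by the authors (36796 rows, column medians 5.91 to 5.99). How it was scaled between arrays is unstated, so it served as an alternative, and it holds 34 of the 71 tested member probes. Here log2 processed signal minus the 75th percentile of non-control spots was used, outlier spots were left out and replicate spots averaged. Probes well above background on at least 3 arrays, with values on at least 5, were fitted (limma 3.58.1, R 4.3.3, two-sided), and the procedure was tested on simulated data. Files were read with pandas 2.3.3 in Python 3.11.15. Families and partner and marker lists were chosen with earlier results of these data known. Genes described by array were those of smallest p in each family (2, up to 4 in the V-ATPase and 6 in the potassium channels) and those with a known renal role, by their brightest probe. CACNB4 and the partners given with values were chosen after their values were seen. Gene names are those of the files, and all 51 are symbols in the RefSeq table of Sscrofa11.1. Probes were not placed on a genome. Alternatives were other scalings, background correction, filters, a variance trend, a block of slide or of sample number, other probe choices and each array left out. Precision is limited by the 3 arrays per group. Values of 2 member genes are not reported here, though they are in the counts over all members.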

Additional observations from a re-analysis of the deposited data

How the results depend on the processing

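The count of member probes and of partner genes past a limma adjusted p of 0.05 was 0 in the main analysis and in each of 16 alternatives, with member adjusted p-values of 0.2109 to 1. Replicate numbers were not taken to pair the samples, since the kidneys of the groups came from different pigs. Deviations from the group mean had correlations of -0.35, -0.17 and -0.05 between samples of the same number. Between samples of the same slide they were 0.34, 0.10 and 0.33, and slide is given as a block and within slides. Deviations in a group sum to 0 and no samples of the same number shared a slide, so these correlations cannot decide on a pairing by number. The fit with the replicate block called 0 member probes and 0 of all probes. At an unadjusted limma p under 0.05 the member count ran from 0 of 63 (probes seen on all 6 arrays) to 5 of 34 (deposited table). The shares over all probes in these settings were not taken, so the counts cannot be set against the array. All probes called were 1 in the main analysis, 11 with median centring, and 0 to 3 in the others. Of the family medians, that of the potassium channels was 0.13 in the deposited table against -0.07, and that of SERCA 0.40 with the brightest probe against 0.05; the first goes with a median of all probes of 0.14 in that table. The TRPC median, 0.28, was -0.05 with normexp and -0.03 without a filter on dim probes, and the cause was not tested. With 1 array left out, the medians ran from -0.26 to 0.00 (beta), -0.15 to 0.19 (SERCA), -0.04 to 0.33 (PMCA), -0.06 to 0.25 (V-ATPase), -0.23 to 0.04 (potassium), -0.05 to 0.20 (calcium) and 0.06 to 0.51 (TRPC). Of 71 member probes, 15 kept their sign in every alternative that gave them a value. Signal near background limits KCNMB4, TRPC1, KCNIP1, KCNB2, KCNG1, KCNAB1, KCNN4 and SCNN1A, among others.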
